A study of Mus musculus with 17 samples.

Results

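R1 is 1 of the 5 enhancer-like elements of the mouse α-globin cluster, and its contacts across the surrounding topologically associating domain (TAD) were described here in erythroid cells, as read by Capture-C. In this assay crosslinked chromatin is cut with DpnII and ligated, fragments joined to a chosen viewpoint are pulled down with oligonucleotides, and each interaction is counted on the DpnII fragment that the viewpoint was joined to. The members were the chromosome 11 fragments listed from the R1 viewpoint with a midpoint inside the TAD and outside the zone that the study left out around the viewpoint, and they span chr11:32080071-32244878 (mm9). There were 380 such fragments in the Ter119+ capture and 364 in the CD71+ capture, of 22144 and 13125 chromosome 11 fragments contacted by R1, and of 678331 different fragments contacted by any viewpoint of the series. The TAD holds 404 DpnII fragments in mm9, and between 334 and 374 of them were contacted by R1 in any 1 library. The region was given to this description by its coordinates and not by its interaction values.

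The 17 libraries fall into 5 groups, and no group was compared across the captures. Primary Ter119+ cells came from spleens of phenylhydrazine-treated adult mice, either unedited (WT, n = 3) or homozygous for Δθ1/θ2/HS+44/HS+48 (QuadDel, n = 3), in which the 4 CTCF-bound sites on the 3′ side of the genes were deleted or edited. In QuadDel, θ1 carries a small deletion, θ2 a repaired edit that adds a BamHI and thereby a DpnII site, and HS+44 and HS+48 were lost with the stretch between them. CD71+ cells were grown from mouse embryonic stem cells as embryoid bodies, resemble primitive erythroblasts, carry an mVenus (YFP) fusion at Hba-a1 and hold only 1 copy of the locus, since the other allele has a large deletion. They were the parental line (WT αYFP, n = 3), a line with an extra α-globin promoter placed past R4 (αPonly, n = 4) and a line with the promoter and the gene there (αP+G, n = 4). The numbers of mice or of separate clones and cultures behind the replicates are not given in the labels. The study describes them as biological replicates in Ter119+ and as independent differentiations in CD71+. The p-values weigh differences between groups against the spread between these libraries.

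The adult α-globin genes Hba-a1 and Hba-a2 encode the α chain of haemoglobin, Hba-x its embryonic counterpart, and Hbq1b and Hbq1a (θ1 and θ2) are weakly expressed relatives downstream of each adult gene. Their enhancers, R1, R2, R3, Rm and R4, lie upstream, most of them in introns of Nprl3, a housekeeping gene, and R1 and R2 are known as the strongest of the cluster in erythroid cells. CTCF is a DNA-binding protein that halts cohesin as it extrudes chromatin loops, with an effect that depends on the orientation of its motif, and bound sites are often found at the edges of domains.

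Some sequences that carry the comparisons are shown first, all from mm9, plus strand, 5′ to 3′. The first is a stretch of the R1 viewpoint's own fragment, chr11:32145279-32146566, 1288 bases within the Nprl3 gene, with matches to the GATA motif (A or T, then GATA, then A or G, on either strand) in capitals. GATA factors bind these letters, and 1.5% of 593712 chromosome 11 regions of 200 bases hold at least 3 such matches, as this stretch does. The stretch was chosen as the 200 bases of the fragment with the most matches, so this share does not test it. The next 4 hold matches, on either strand and in capitals, to a short form of the CTCF motif of 14 bases, which reads CC, 3 free bases, AG, 2 free bases, GGC, 1 free base and C. The matches shown at θ1, θ2 and HS+44 lie on the minus strand, those shown at HS+65/66 on the plus strand. The HS+65/66 window holds 4 matches in all, and the one at chr11:32241292-32241305 lies on the minus strand. There were 13 such matches in the TAD, and a single match occurs in 0.129% of chromosome 11 regions as long as the θ1 stretch. The CTCF stretches were cut around their matches, so that share does not test them either. A match is a description and not a bound site, and the exact bases lost in QuadDel were not determined here.
R1 viewpoint, chr11:32145666-32145865: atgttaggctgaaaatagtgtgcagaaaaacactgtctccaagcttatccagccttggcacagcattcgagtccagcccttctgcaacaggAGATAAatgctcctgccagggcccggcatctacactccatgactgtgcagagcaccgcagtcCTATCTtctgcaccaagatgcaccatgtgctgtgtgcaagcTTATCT
θ1, edited in QuadDel, chr11:32186912-32186964: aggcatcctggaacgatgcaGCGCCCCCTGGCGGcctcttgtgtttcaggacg
θ2, edited in QuadDel, chr11:32200017-32200068: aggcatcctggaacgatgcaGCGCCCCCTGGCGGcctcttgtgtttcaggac
HS+44, at the 5′ end of the QuadDel deletion, chr11:32221315-32221426: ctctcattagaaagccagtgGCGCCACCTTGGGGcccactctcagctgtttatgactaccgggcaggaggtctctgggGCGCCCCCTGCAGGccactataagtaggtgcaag
HS+65/66, kept in QuadDel, chr11:32242886-32242975: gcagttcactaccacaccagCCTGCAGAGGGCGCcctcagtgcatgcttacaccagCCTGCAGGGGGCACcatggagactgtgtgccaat

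Another 3 sequences bear on how contacts were counted. A DpnII fragment of 275 bases within Hba-a1, chr11:32183838-32184112, is letter for letter the same as one within Hba-a2, chr11:32196655-32196929, and the pair of fragments that follow them, 593 bases each, differ at 3 bases, so reads from the adult genes cannot be placed with certainty. A 42-base fragment close to R1 led part of the QuadDel comparison. The 130 bases around the insertion site are shown with the 70 bases replaced in αPonly and αP+G in capitals.
Hba-a1 and Hba-a2: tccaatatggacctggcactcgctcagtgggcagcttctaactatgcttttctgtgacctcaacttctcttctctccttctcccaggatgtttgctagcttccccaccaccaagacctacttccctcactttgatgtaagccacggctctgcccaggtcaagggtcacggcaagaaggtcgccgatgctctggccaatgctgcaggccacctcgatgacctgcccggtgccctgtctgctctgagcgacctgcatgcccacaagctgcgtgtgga
next to R1, chr11:32146861-32146902: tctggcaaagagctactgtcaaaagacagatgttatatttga
insertion site, chr11:32171757-32171886: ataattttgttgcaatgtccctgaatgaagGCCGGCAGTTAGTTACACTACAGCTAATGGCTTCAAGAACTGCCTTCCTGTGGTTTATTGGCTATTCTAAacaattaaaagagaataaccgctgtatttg

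R1 gave 14444 to 20743 chromosome 11 interactions outside the zone per Ter119+ library and 6123 to 14791 per CD71+ library. All levels below are interactions per 100,000 of these. Single fragments were thinly covered, with a median over fragments of 14.4 interactions per library in Ter119+ and 9.64 in CD71+, so sums over 23 windows that divide the TAD at its landmarks were also used. In Ter119+ the zone was only the R1 fragment itself, and the fragments on either side of it, which touch the zone and were left out, held 38.6% to 51.7% of R1 chromosome 11 interactions, more in each WT library than in any QuadDel library. In CD71+ the zone reached 1 kb further and left out all of the R1 surroundings window, and stretches around the R2 and HS-38 viewpoints are likewise unlisted. The fragments of R2, HS-38 and HS-39 that served as viewpoints were not listed from R1 in Ter119+, nor those with the starts of Hba-a1 and Hba-a2. The direct contact of R1 with the R2 viewpoint fragment, chr11:32151062-32151881, was therefore not measured in either capture.

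In unedited cells R1 reached further, and more often, towards the globin genes than away from them. In WT the TAD held 58.6% ± 1.54 (SD, n = 3) of the R1 chromosome 11 interactions, and 24.9% ± 1.53 of those lay upstream of R1, on the Mpg and Rhbdf1 side. Per kb of listed fragments, the level 30 to 40 kb from R1 was 647 ± 22.0 downstream and 160.3 ± 2.09 upstream, a ratio of 4.04 ± 0.163, and at 40 to 50 kb the ratio was 6.91 ± 0.805. The downstream profile did not fall steadily with distance. It was 1537 ± 122 within 10 kb, 523 ± 19.9 at 10 to 20 kb, and 698 ± 32.9 at 40 to 50 kb, in the stretch of the genes. Past them it fell to 189 ± 26.3 at 60 to 70 kb and 32.9 ± 8.45 at 90 to 100 kb.

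Among the enhancers, the R2 window, chr11:32148396-32152947, was the densest of the TAD in WT, at 2054 ± 151 per kb, although its viewpoint fragment is missing from it. The R1 surroundings, at 2012 ± 296, did not differ from it beyond their spread. R3 stood at 686 ± 13.8 and R4 at 688 ± 96.4, which did not differ beyond their spread, and Rm, which lies between them, at 375 ± 29.3. The globin genes stood apart from the chromatin around them. Hba-a1 had 1341 ± 140.1 per kb, Hba-a2 1113 ± 2.48 and Hbq1b 913 ± 28.7, against 591 ± 66.5 in the stretch between Hbq1b and Hba-a2 and 521 ± 37.7 in the window of Hba-x, which ends before Hba-a1. Hbq1a, the last gene of the cluster, had 288 ± 31.2 per kb, and was by this measure below every other globin window in each WT library. Fragment lengths differ between windows, and the order per fragment can differ from this order per kb. Hbq1a has 4 listed fragments over 4.88 kb and Hba-a1 5 over 1.46 kb, while Rm has 6 over 4.34 kb and R3 15 over 5.88 kb. The order of Hba-a1 and Hba-a2 is open to the shared sequence shown above. The HS-38/-39 window, which holds the CTCF-bound sites of the 5′ edge, had 1015 ± 89.3 per kb. On the 3′ side the level was 208 ± 21.6 in the proximal flank just past Hbq1a, 132 ± 3.15 over HS+44/+48, and 32.9 ± 8.45 over HS+65/66, the lowest of the 23 windows.

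The 10 single fragments with the highest WT levels all lay close to R1, from chr11:32142086-32144132 upstream to chr11:32150623-32151061 downstream. The first, chr11:32146903-32148395, had 1656, 1431 and 1335 in the 3 libraries. A fragment of the R2 window, chr11:32149641-32149927, had 1187, 1202 and 1186, a narrow spread. The next fragments in rank were those of the adult genes that follow the identical pair, with means of 598 at Hba-a2 and 589 at Hba-a1. The identical 275-base fragments read 631, 563 and 482 at Hba-a1 and 556, 580.5 and 448 at Hba-a2, with overlapping ranges. These are levels per fragment and not per length.

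Gene starts in the TAD differed widely in how often R1 met them. On the fragment holding each start, the WT level per fragment was 489 ± 77.3 at Hbq1b (chr11:32186965-32187784, plus strand), 322 ± 44.3 at Hbq1a (chr11:32200069-32200873, plus strand), 320.4 ± 99.8 at Nprl3 (chr11:32125628-32167707, minus strand) and 276 ± 38.9 at Hba-x (chr11:32176400-32178116, plus strand). The starts upstream of R1 were met less. They stood at 104 ± 32.2 for Rhbdf1, an inactive rhomboid protein, 72.7 ± 8.47 for Mpg, a DNA glycosylase, 72.7 ± 55.9 for Snrnp25, a protein of the minor spliceosome, and 38.4 ± 30.4 for Il9r, the interleukin-9 receptor. The spread within several of these exceeded the gaps between them.

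The CD71+ parental cells gave a profile of the same outline, and the captures were not compared by a test since their zones, cells and libraries differ. The level 30 to 40 kb downstream was 4.59 ± 0.392 times that at the same distance upstream. R2 was again the densest window, at 2288 ± 137 per kb, followed by Hba-a1 at 1397 ± 133 and Hbq1b at 1152 ± 308, and the level at HS+65/66 was 38.1 ± 10.0. The TAD held 59.9% ± 2.85 (SD, n = 3) of the R1 chromosome 11 interactions in WT αYFP, 59.0% ± 0.591 (SD, n = 4) with the promoter inserted and 60.8% ± 1.57 (SD, n = 4) with promoter and gene. The highest single fragment was the R2 fragment chr11:32149641-32149927, with 1364, 1419.8 and 1509, and 4 of the 10 highest lay in the adult genes.

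**Figure D1:**
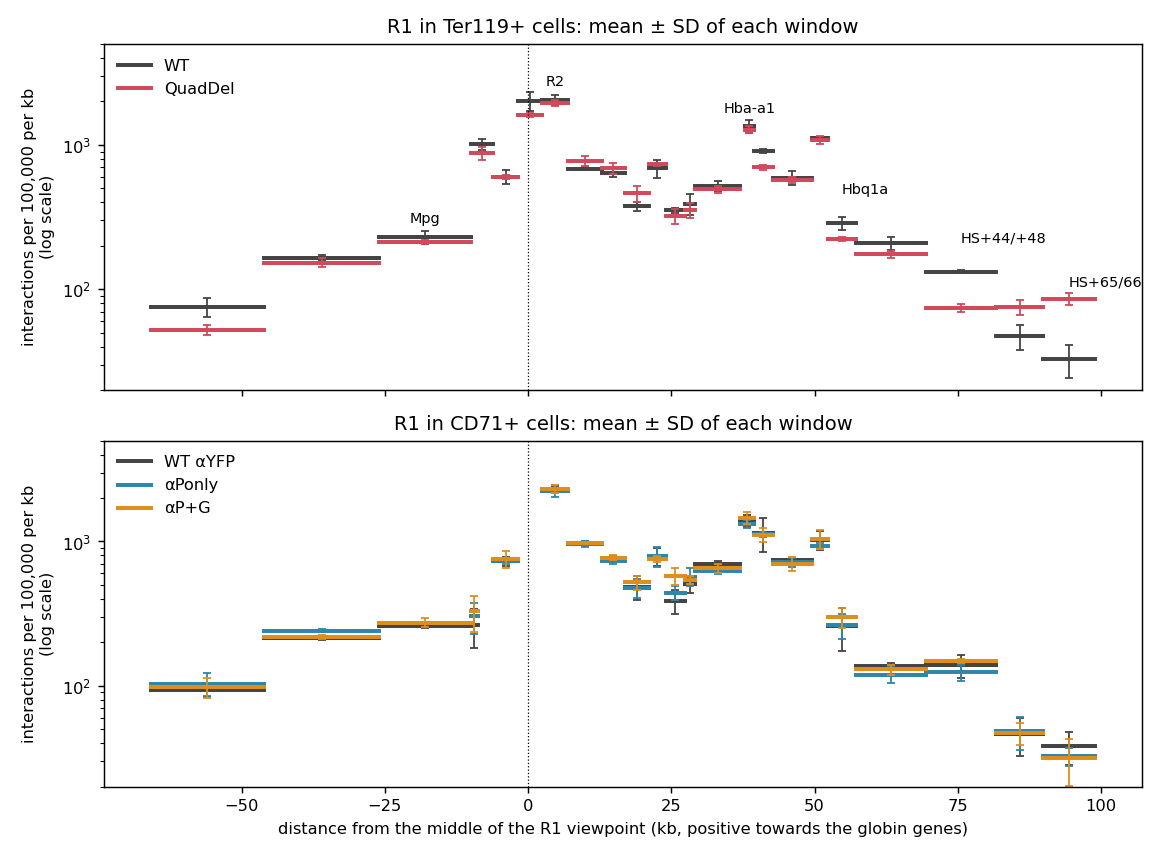
R1 interactions per 100,000 and per kb of listed fragments (y, log scale) against distance from the middle of the R1 viewpoint in kb (x, positive towards the globin genes), each horizontal bar being 1 window at its group mean with its SD, above for WT and QuadDel (n = 3 each) and below for WT αYFP (n = 3), αPonly and αP+G (n = 4 each). Levels are high at R2 and again at Hba-a1 and Hba-a2, and fall to 32.9 ± 8.45 in WT at HS+65/66, where QuadDel stands at 86.3 ± 8.69.

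Deletion of the 4 CTCF sites was the subject of the first comparison, which asks how far R1 contacts spread when the 3′ sites are gone. In QuadDel, R1 met the far 3′ side of the TAD more often and the edited sites less often, while the windows of the adult genes and of R2 did not pass the test. Of the 23 windows, 7 passed the threshold of an adjusted p of 0.05, 2 of them higher and 5 lower. In the background of all chromosome 11 windows and 5 kb bins from R1, 17.4% were called, 14.7% higher and 2.63% lower, and the 26 called bins outside the TAD were all higher. The share of R1 interactions that stayed in the TAD was 54.1% to 56.7% in the QuadDel libraries and 57.1% to 60.2% in WT. The scale therefore matters here: the median log2 difference was 0.27 over all windows and bins, 0.39 outside the TAD and -0.08 over the 23 windows.

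HS+65/66, chr11:32235768-32244878, is a cluster of CTCF-bound sites beyond those that were deleted. Its level was 237, 276 and 386 in the WT libraries and 714, 871 and 775 in the QuadDel libraries. The groups did not overlap (log2 difference 1.36, SE 0.16, edgeR adjusted p = 6.26e-06), and the difference was larger than the median of the bins outside the TAD. The stretch between HS+48 and HS+65/66, chr11:32227687-32235767, had 468, 328 and 347 in WT and 539, 593 and 685 in QuadDel, also without overlap (log2 difference 0.67, SE 0.15, edgeR adjusted p = 0.00383). It lost its call under DESeq2's size factors (log2 difference 0.39, edgeR adjusted p = 0.122) and in DESeq2's own test. HS+65/66 remained called in all 16 alternatives.

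Within HS+65/66 the rise was spread over the window. All 13 listed fragments had a higher mean in QuadDel than in WT, and 4 of the 12 tested were called. Over the TAD, 14 of 323 tested fragments were called, 5 higher and 9 lower. Of the 330 R1 fragments tested on chromosome 11, 323 are these TAD fragments. The background is therefore not a separate set: 5.15% were called, 2.42% higher and 2.73% lower. Of the 7 outside the TAD, 3 were called, all higher. The fragment chr11:32242419-32243039, singled out after its values were seen, holds both matches of the HS+65/66 sequence shown above. It was met 4, 1 and 7 times in the WT libraries and 21, 9 and 21 times in the QuadDel libraries. These are small counts, but every QuadDel library was above every WT library (log2 difference 2.04, SE 0.53, edgeR adjusted p = 0.00460). Without this fragment the window stood at 210.3 to 352 in WT and 612 to 825 in QuadDel, still apart. The other fragments that rose there, also chosen after the values were seen, were chr11:32242085-32242323, chr11:32243040-32243120 and chr11:32238150-32238686. Their calls were lost in 7 of 15, 6 of 14 and 5 of 14 alternatives, each time including DESeq2's test, a mean count of at least 1 and leaving out WT replicate 1, WT replicate 2 or QuadDel replicate 3, and the first 2 also without WT replicate 3 and the first without QuadDel replicate 1. The fragment with both printed matches lost its call in 2 of 15, without WT replicate 2 (edgeR adjusted p = 0.180) and without QuadDel replicate 3 (0.305). The fragments with the other matches of the window, chr11:32240738-32242084 and chr11:32238687-32239517, were not called (edgeR adjusted p = 0.172 and 0.467).

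The HS+44/+48 window, chr11:32215333-32227686, fell from 1676, 1612 and 1605 in the WT libraries to 845, 943 and 955 in the QuadDel libraries (log2 difference -0.84, SE 0.10, edgeR adjusted p = 6.26e-06). Part of it is no longer there. The 8 fragments wholly between the guides, chr11:32221719-32224324, were met 50, 56 and 76 times in WT and 4, 3 and 5 times in QuadDel, a level of 345 ± 19.6 against 23.2 ± 10.1 (SD, n = 3), or 6.72% of WT. This is the check of the genotype in these libraries, and how the remaining counts arose was not tested. Outside these 8 fragments the level was lower as well. The other 23 fragments of the window summed to 1239 to 1337 in WT and to 826 to 928 in QuadDel, and those ranges did not overlap. They include DNA at the edges of the deletion, and the part of removed edge DNA in this difference was not tested. They also include chr11:32219466-32219590, chosen after its values were seen, which lies upstream of the printed HS+44 stretch. It was called lower, at 75.4 ± 11.0 in WT and 12.4 ± 7.23 in QuadDel (log2 difference -2.48, SE 0.60, edgeR adjusted p = 0.00176). Its call was lost in 1 of 15 alternatives.

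Of the removed fragments, chr11:32222955-32223357 was met 15, 11 and 7 times in WT and never in QuadDel, and chr11:32223358-32223574 7, 9 and 16 times and never. Against a floor of 3 counts over the QuadDel group they were at least 11.4-fold and at least 11.1-fold lower. Both were called (edgeR, adjusted p = 2.92e-07 and 3.34e-07), and together with chr11:32223939-32224308 they make 3 of the 9 fragments called lower in the TAD. The fragment with the HS+44 matches, chr11:32220920-32221718, lies at the edge of the deletion and was met 12, 12 and 19 times in WT and 6, 10 and 1 times in QuadDel (edgeR adjusted p = 0.119).

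The θ genes, whose CTCF sites lie just before their starts, were also met less. The Hbq1b window, chr11:32185293-32188609, had 2999, 2949 and 3134 in WT and 2219, 2412 and 2347 in QuadDel (log2 difference -0.38, SE 0.09, edgeR adjusted p = 0.00388). The Hbq1a window, chr11:32198229-32203107, had 1255, 1559.7 and 1398 in WT and 1059, 1082 and 1135 in QuadDel (log2 difference -0.37, SE 0.10, edgeR adjusted p = 0.0163). Neither pair of groups overlapped. Counting the fragments beside R1 ended both calls (edgeR adjusted p = 0.184 for Hbq1b and 0.323 for Hbq1a), the only 1 of 16 alternatives to do so for Hbq1b. Hbq1a lost its call in 6 of 16, the others being scaling to the TAD total and leaving out WT replicate 2, WT replicate 3, QuadDel replicate 1 or QuadDel replicate 2.

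Both windows were led by the fragment that carries the edited site and the gene start. At θ1, chr11:32186469-32187032 had 400.3, 528 and 539.9 in WT and 262, 263 and 284 in QuadDel (log2 difference -0.88, SE 0.18, edgeR adjusted p = 1.35e-04). At θ2, chr11:32199493-32200137 had 285, 311 and 371 in WT and 155, 139 and 152 in QuadDel (log2 difference -1.12, SE 0.23, edgeR adjusted p = 1.35e-04). Both calls remained in all 16 alternatives. The θ2 edit adds a DpnII site to its fragment and the θ1 edit shortens its own, and the part of this in the counts was not tested. Without the edited fragment, the Hbq1b window still stood apart, at 2422 to 2599 in WT and 1957 to 2149 in QuadDel. Hbq1a did not: the ranges of its other 3 fragments, 970.3 to 1249 and 903 to 983, overlapped. The proximal flank just past Hbq1a had 2843, 2345 and 2439 in WT and 1986, 2226 and 2188 in QuadDel, without overlap and short of the threshold (log2 difference -0.25, SE 0.10, edgeR adjusted p = 0.0842). It passed as lower in 4 of 16 alternatives, with TMM factors (edgeR adjusted p = 0.0328), with DESeq2's size factors (0.00333), in DESeq2's test (6.81e-04) and without WT replicate 2 (0.0498).

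The adult genes gave no called difference. Hba-a1 had 2178, 1782 and 1895 in WT and 1976, 1762 and 1842 in QuadDel (log2 difference -0.06, SE 0.10, edgeR adjusted p = 0.722), and the ranges overlapped. Hba-a2 had 2192, 2193 and 2184 and 2039.5, 2046 and 2271, overlapping as well (log2 difference -0.05, SE 0.09, edgeR adjusted p = 0.735). Their direction turned with the scaling, to 0.02 and 0.03 relative to the TAD total, so none is given. With DESeq2's size factors Hba-a2 passed as lower, at -0.33 on the log2 scale (edgeR adjusted p = 0.0401). The start of Hba-x, on chr11:32176203-32176928, had 299, 299 and 231 in WT and 199, 186 and 138 in QuadDel, without overlap but short of the threshold (log2 difference -0.63, SE 0.24, edgeR adjusted p = 0.126). The stretch from Hba-a1 to Hbq1a held 12.3% to 13.2% of chromosome 11 interactions in WT and 11.1% to 11.4% in QuadDel.

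The enhancer windows R2, R3, Rm and R4 did not pass either, although Rm did in 4 of 16 alternatives. R2 had 8264, 7587 and 7149 in WT and 7051, 7194 and 7747 in QuadDel (log2 difference -0.06, SE 0.09, edgeR adjusted p = 0.702). R3 and Rm were each higher in all 3 QuadDel libraries than in any WT library, R3 at 4142, 4869.9 and 4597 against 4071, 3940.2 and 4088 and Rm at 1845, 1860.3 and 2305 against 1737, 1489 and 1663, with adjusted p values (edgeR) of 0.233 and 0.0605. Rm passed as higher relative to the TAD total (edgeR adjusted p = 0.00897), with the fragments beside R1 counted (0.00541), at a mean count of at least 20 (0.0447) and without QuadDel replicate 1 (0.0454). R4 overlapped between the groups, with means of 1934 ± 271 and 2063 ± 56.7. Of the 15 fragments of R3, 12 had a higher mean in QuadDel, and of the 6 of Rm, 5 did, none of them called. The start of Nprl3, which lies in the R4 window, had 320.4 ± 99.8 in WT and 417 ± 34.3 in QuadDel, and was not called.

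Upstream of R1, the window at the TAD start, chr11:32080071-32099820, fell from 1405, 1296 and 1726 in WT to 1049, 933 and 1087 in QuadDel (log2 difference -0.54, SE 0.12, edgeR adjusted p = 0.00260). It holds most of Il9r, an interleukin receptor gene. It lost the call when the fragments beside R1 were counted. Its single called fragment, chr11:32082941-32083315, chosen after its values were seen, was met 10, 9 and 8 times in WT and 1, 0 and 2 times in QuadDel, and lost its call in 3 of 12 alternatives, DESeq2's test, a mean count of at least 1 and leaving out QuadDel replicate 3. Rhbdf1, Mpg and HS-38/-39 were not called, with means of 3309 ± 162 and 3086 ± 221, 3695 ± 386 and 3404 ± 114, and 2761 ± 243 and 2383 ± 253 in WT and QuadDel. HS-38/-39 passed as lower in 3 of 16 alternatives, with TMM factors (edgeR adjusted p = 0.0414), with DESeq2's size factors (0.00700) and in DESeq2's test (0.00193). At HS-38/-39, 10 of the 11 fragments had a lower mean in QuadDel, and at the TAD start 39 of 51. Lower values were common on this scale, with a median log2 difference of -0.13 over the 323 tested TAD fragments.

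The R1 surroundings window, chr11:32144133-32148395, had 4200.0, 3371 and 3216 in WT and 2850.5, 2839 and 2991 in QuadDel (log2 difference -0.31, SE 0.10, edgeR adjusted p = 0.0445). Most of that difference lay on the 42-base fragment shown above, at 1608, 1219.6 and 1171 in WT and 796, 685 and 928 in QuadDel (log2 difference -0.73, SE 0.13, edgeR adjusted p = 1.49e-06). Without it the ranges were 2044 to 2592 and 2054 to 2154. The window lost its call in 7 of 15 alternatives, among them leaving out WT replicate 1 or any 1 QuadDel library, while the 42-base fragment kept it in all 15. The share held by the fragments touching the zone was likewise higher in WT, and its part in these values was not tested.

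**Figure D2:**
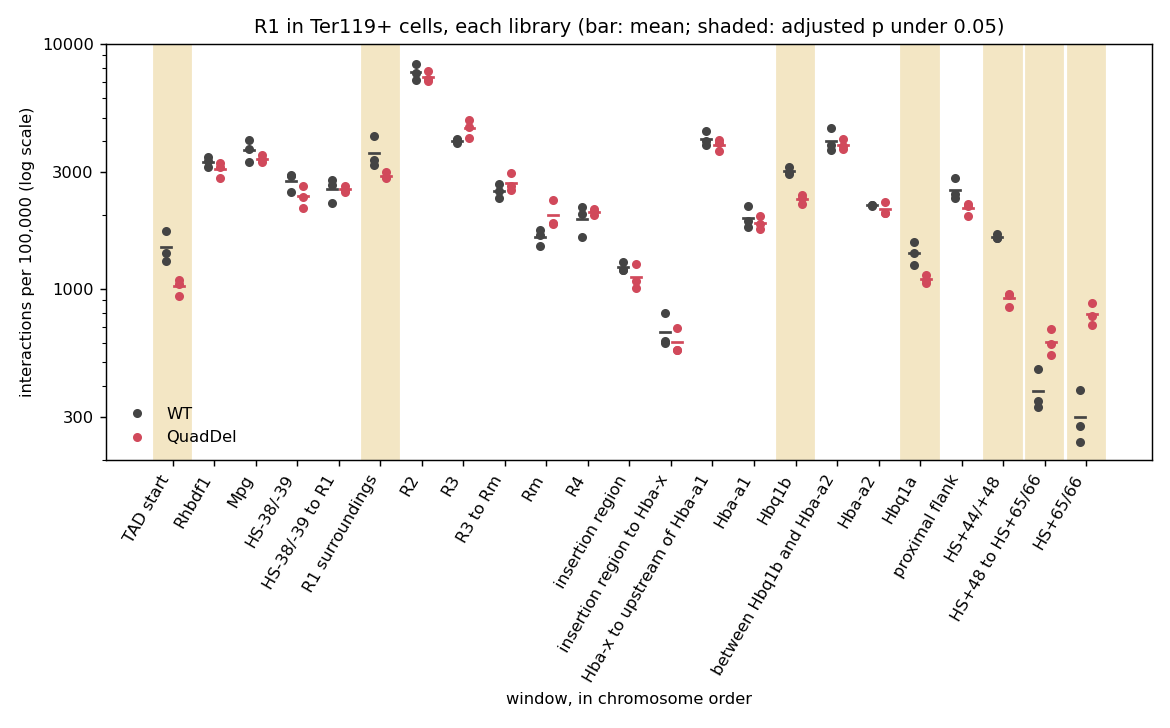
R1 interactions per 100,000 (y, log scale) in each of the 23 windows in chromosome order (x), with each point a WT or QuadDel library (n = 3 each), short bars the group means, and shading the 7 windows with an adjusted p under 0.05. HS+65/66 is higher in all 3 QuadDel libraries, at 714, 871 and 775, and HS+44/+48 lower, while the points of Hba-a1 and Hba-a2 overlap between the groups.

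**Figure D3:**
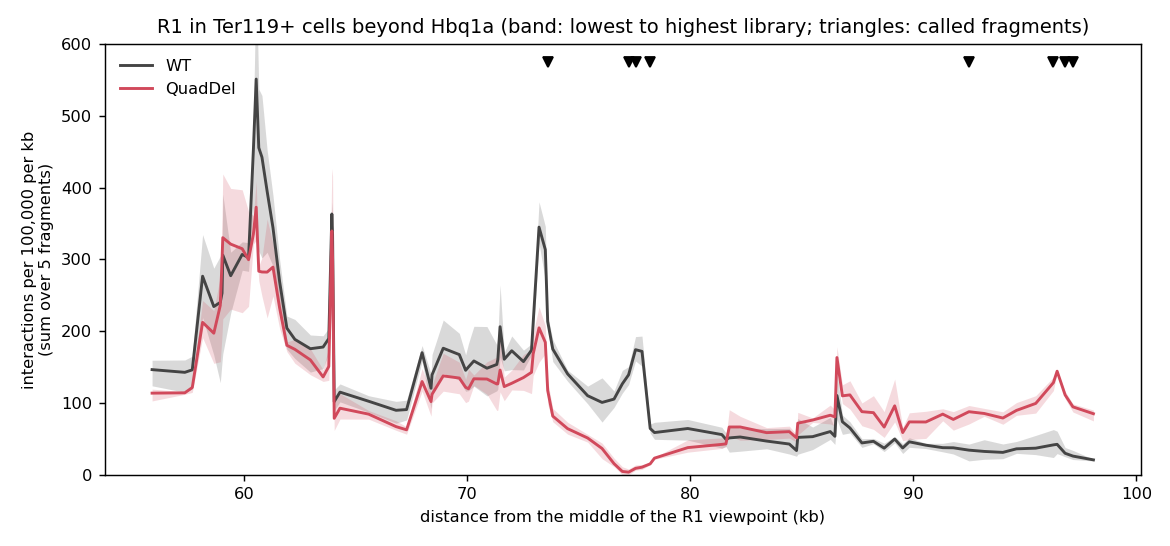
Running level of R1 interactions per 100,000 and per kb over 5 neighbouring fragments (y) against distance from the R1 viewpoint in kb (x) beyond Hbq1a, with lines for the means of WT and QuadDel (n = 3 each), bands from the lowest to the highest library (clipped at 600) and triangles for the 8 called fragments. QuadDel drops to near 0 over the deleted stretch, which was met 12 times in all in QuadDel and 182 times in WT, and lies above WT towards HS+65/66.

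The second set of comparisons asks whether an extra promoter, or promoter and gene, set between the enhancers and the genes changes what R1 meets. The comparisons share libraries, and all 3 CD71+ groups entered 1 fit. In αP+G against WT αYFP, 1 of 22 windows was called, the one around the insertion site. The background was 0.667% of 150 windows and bins, with this window the only 1 called. No single fragment was called among the 258 tested in the TAD, by edgeR or by DESeq2, and 18 had an unadjusted p under 0.05 in edgeR. The background was 0% of 260 fragments, which include these 258.

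The insertion region lies between R4 and Hba-x, and its level was 1099, 1352 and 1611 in the WT αYFP libraries and 1974, 1653, 2103 and 2300.2 in the αP+G libraries. All 4 αP+G libraries lay above all 3 of WT αYFP (log2 difference 0.55, SE 0.12, edgeR adjusted p = 0.00651). The call was lost in 7 of 18 alternatives, among them DESeq2's test, a fit of these groups alone, and leaving out WT αYFP replicate 1, WT αYFP replicate 2 or αP+G replicate 4. αPonly had 1761, 1486, 1369 and 1516, which overlapped with WT αYFP (log2 difference 0.15, SE 0.13, edgeR adjusted p = 0.907). The difference between αP+G and αPonly was tested directly and did not pass (log2 difference 0.40, SE 0.12, edgeR adjusted p = 0.164), but it passed in a fit of these groups alone (edgeR adjusted p = 0.0442) and without αP+G replicate 2. The fragment that holds the insertion site shown above, chr11:32170702-32172142, had 119, 229.9 and 224 in the libraries of WT αYFP, 284, 163, 165 and 143 in those of αPonly and 286, 244, 424 and 414 in those of αP+G, and its difference between αP+G and WT αYFP was not called (log2 difference 0.77, SE 0.27, edgeR adjusted p = 0.467). In the insert sequences that the study lists, the gene body holds DpnII sites and the promoter holds none. The fragment with the insertion site is therefore cut differently in αP+G and αPonly, and the part of this in the counts was not tested. Contacts with the inserted DNA itself have no fragment of their own in mm9 coordinates here, and reads from it that match the native genes cannot be told apart from theirs.

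The windows of Hba-a1 and Hba-a2, whose counts can include reads from the inserted copies, did not pass in either line. For Hba-a1 the WT αYFP libraries gave 3243, 2900.4 and 3514, the αPonly libraries 3119.8, 2776, 3097 and 3184 and the αP+G libraries 3284, 3174, 3809 and 3129. Hba-a2 had 2555, 2691 and 3365, 2647, 2629, 2444 and 2717 and 2832, 2526, 3520.5 and 2723 in the same order. All 3 ranges overlapped at both genes. On the fragments with the gene starts, Hba-a1 had 626 ± 138 (SD, n = 3), 614 ± 51.4 (SD, n = 4) and 721 ± 189 (SD, n = 4), and Hba-a2 585 ± 15.5, 570.4 ± 28.2 and 675 ± 137. In the Hba-x window the levels were 5242, 5571 and 5744 in WT αYFP and 4703, 4769, 5032 and 5234 in αPonly, every αPonly library being below every WT αYFP library, but the difference did not pass (log2 difference -0.16, SE 0.08, edgeR adjusted p = 0.781). αP+G, at 4769.8, 5353, 5506 and 4935, overlapped with both. The windows from R2 to R4 held 17.5% to 18.8% of chromosome 11 interactions in the WT αYFP libraries, 16.4% to 18.8% in those of αPonly and 17.5% to 18.5% in those of αP+G.

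In αPonly against WT αYFP no window and no fragment of the TAD was called (background 0% for both), with 2 windows and 10 fragments at an unadjusted p under 0.05 in edgeR, and DESeq2 called none. One of those windows was Rhbdf1, at 4892, 4867, 5010.4 and 4719 in αPonly against 4488, 4259 and 4262, higher in all 4 libraries (edgeR adjusted p = 0.781). In αP+G against αPonly no window was called (background 0%, 2 windows at an unadjusted p under 0.05, none in DESeq2). A single fragment was called of 258 (background 0.385% of 260, this fragment included), chr11:32117144-32117609 within Rhbdf1. The αPonly libraries had 319, 196, 165 and 229 and the αP+G libraries 119.9, 84.5, 63.2 and 52.9, without overlap (log2 difference -1.48, SE 0.36, edgeR adjusted p = 0.0124), and 199, 142 and 149.5 in WT αYFP. The fragment was not tested at a count minimum of 20, and the call was lost without αP+G replicate 3, αP+G replicate 4 or αPonly replicate 1. DESeq2 called the fragment too.

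**Figure D4:**
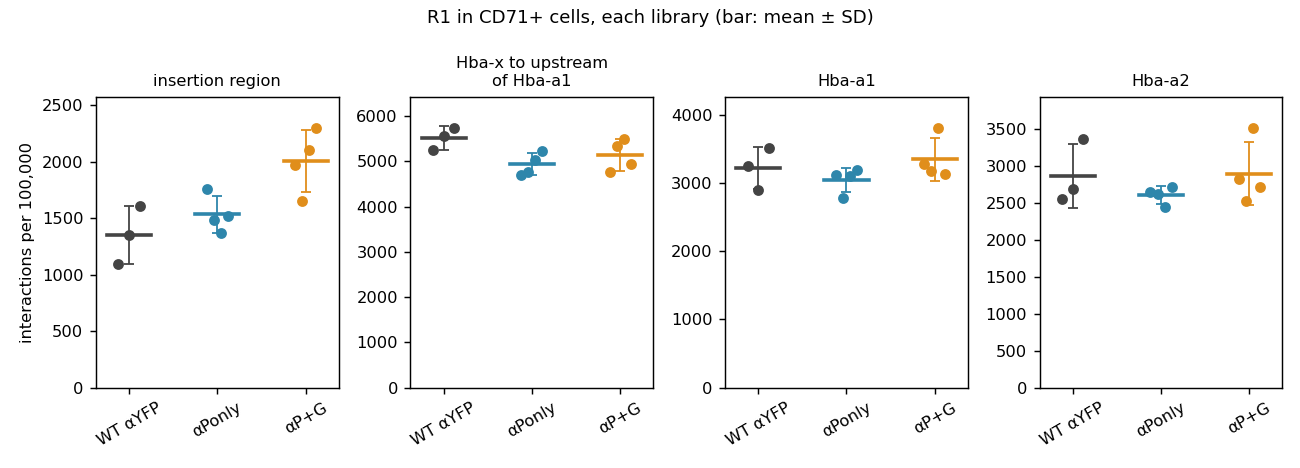
R1 interactions per 100,000 (y) in 4 windows for each CD71+ library (points) of WT αYFP (n = 3), αPonly and αP+G (n = 4 each), with bars for the mean ± SD. The insertion region is higher in all 4 αP+G libraries, at 1974, 1653, 2103 and 2300.2, than in WT αYFP, while Hba-a1 and Hba-a2 overlap between the 3 groups.

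At the distal windows of the insertion models, the CTCF sites being intact, HS+65/66 had 384, 243 and 415 in the parental line, 272, 359, 272 and 286 with the promoter and 286, 357, 144 and 361 with promoter and gene, and HS+44/+48 had means of 1717 ± 309, 1527 ± 184 and 1831 ± 51.1. None of these was called. HS+44/+48 was nearest, between αP+G and αPonly (log2 difference 0.28, SE 0.11, edgeR adjusted p = 0.410).

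How sharply R1 contacts end at the edges of the sub-TAD, the inner domain from HS-38/-39 to Hbq1a, was expressed per library as a step, the log2 ratio of interactions per kb in the 15 kb inside against the 15 kb outside the edge. At the 3′ edge the step was 1.49, 1.67 and 1.63 in WT and 1.79, 1.66 and 1.72 in QuadDel, a difference of 0.13 (exact two-sided permutation test, p = 0.2, where 0.1 is the smallest p that 3 against 3 libraries allow). With 20 kb on each side the difference was 0.21, with every QuadDel library above every WT library (exact two-sided permutation test, p = 0.1, the smallest possible). Those 20 kb outside reach into the QuadDel deletion, past the start of its wholly removed fragments at chr11:32221719. They also include the edge fragment chr11:32220920-32221718, at 81.1 ± 10.6 in WT and 29.2 ± 22.3 in QuadDel. The part of removed DNA in the 20 kb difference was not tested. At 15 kb the difference was 0.08 without WT replicate 1. The mean level was lower in QuadDel on both sides of the edge. Inside, the level was 603 ± 20.4 per kb in WT and 551 ± 14.9 in QuadDel, and outside it was 200.2 ± 18.5 and 167 ± 11.7. The step so close to the edge does not reach HS+65/66. At the 5′ edge it was 2.57 ± 0.21 in WT and 2.52 ± 0.11 in QuadDel (exact two-sided permutation test, p = 0.9). The 15 kb inside that edge surround R1, so the 5′ value also holds nearness to the viewpoint. Its means were 1.65 and 1.67 with 10 kb windows, and 5.22 and 4.94 with the fragments beside R1 counted. The 5′ and 3′ steps are therefore not comparable in size.

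In CD71+ cells the 3′ step was 2.39 ± 0.23 for WT αYFP (n = 3), 2.57 ± 0.13 for αPonly (n = 4) and 2.40 ± 0.26 for αP+G (n = 4), and the 5′ step 2.13 ± 0.07, 2.09 ± 0.12 and 2.07 ± 0.07. None of the 6 differences passed (exact two-sided permutation tests, p from 0.229 to 0.914, where the smallest possible is 0.0286). Of the TAD interactions, the sub-TAD held 77.2% ± 1.05 in WT, 78.4% ± 0.0359 in QuadDel, and between 74.7% ± 1.24 (αPonly) and 75.8% ± 1.98 (WT αYFP) in CD71+ cells.

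**Figure D5:**
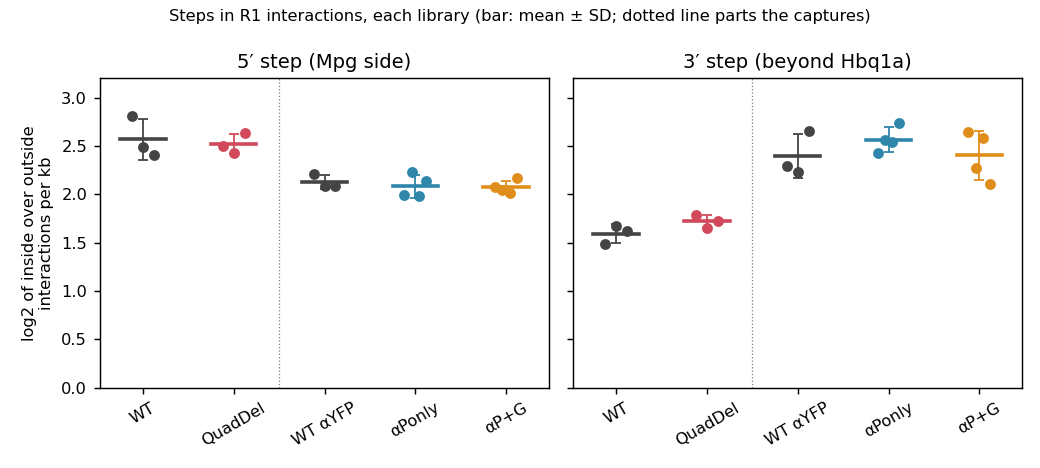
The step, the log2 ratio of R1 interactions per kb within 15 kb inside over 15 kb outside the edge of the sub-TAD (y), for each library (points) of the 5 groups (x), with bars for the mean ± SD (n = 3 or 4), left at the 5′ edge and right at the 3′ edge. WT and QuadDel stand at 1.59 ± 0.09 and 1.72 ± 0.07 at the 3′ edge, and the CD71+ groups overlap at both edges. The stretch inside the 5′ edge surrounds R1, so the sizes of the 5′ and 3′ steps are not comparable.

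R2, the neighbouring enhancer, was read in the same libraries and covers the TAD with 380 fragments in Ter119+ and 363 in CD71+, which allows a test of whether R1 changed differently. From R2, HS+65/66 had 183 ± 6.05 in WT and 596 ± 86.9 in QuadDel, HS+44/+48 911 ± 21.3 and 578 ± 111, and the Hbq1b window 2537 ± 192 and 2258 ± 50.7 (SD, n = 3). No window of 21 differed between R1 and R2 in its response to QuadDel (background 0%), with 1 at an unadjusted p under 0.05 in edgeR. That was Hbq1b, where the change from R1 was more negative by 0.22 on the log2 scale (edgeR adjusted p = 0.596). Scaling with TMM factors, however, called 13 windows, all with the lower change from R1, and shifted the median of all differences from 0.10 to -0.24. The insertion region from R2 had 1766 ± 269 in WT αYFP and 2346 ± 126 in αP+G. There too none of 21 windows differed between R1 and R2 (background 0%), and 5 had an unadjusted p under 0.05, led by Hbq1a (edgeR adjusted p = 0.328). The tests of R1 and R2 are limited by the spread of small windows, and a p that misses the threshold does not show that both enhancers responded alike.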

How the data were processed

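Capture-C libraries of 17 samples were analysed. The deposited interaction counts, per the labels and the study's methods, were made by the authors by trimming (Trim Galore), merging (FLASH), in-silico DpnII digestion, alignment with Bowtie to mm9 or a custom genome, and removal of PCR duplicates. The raw count of each fragment and viewpoint was used. Fragments overlapping the deposited R1 zone were left out, and levels were scaled to 100000 R1 interactions on chromosome 11 outside it. Members, windows and naming rule were chosen with earlier results of these data known.

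Fragments with a mean count of at least 5, and sums over 23 windows and over 5000 bp bins of the rest of chromosome 11, were tested with edgeR's quasi-likelihood test (4.0.16, R 4.3.3), with the chromosome 11 total as library size and Benjamini-Hochberg adjustment over all R1 features (threshold 0.05). The scripts were tested on simulated data. Counts of replicates spread more widely than counting error alone gives, with a chi-square statistic of 1.50 to 1.94 for each degree of freedom, so no library was treated as a duplicate. Alternatives were other scalings, count minimums, zones, DESeq2 (1.42.0), a replicate block and leaving out each library. The change from R1 was set against that from R2 by an interaction term, and steps were compared by exact permutation tests (scipy 1.17.1). Fragments named by rule were up to 5 called ones with the smallest p per comparison, the 10 highest in each unedited group, those with gene starts and the viewpoints. Named outside the rule were further called fragments and those with CTCF-like matches or the insertion site. Gene positions came from an mm9 annotation, and the edits were placed by exact match of the guides. Thin counts limit the precision of single fragments and of windows such as HS+65/66.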

Additional observations from a re-analysis of the deposited data

Results flagged for a closer look

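Among 74 groups of 4 CD71+ libraries examined, 3 held a library far from the others by Dixon's ratio, which chance gives in about 5% of groups. Each group was a window, a named fragment, a share of interactions or a step in 1 line. At HS+65/66, αPonly replicate 2 had 359 interactions per 100,000, while the other 3 αPonly libraries had 272 to 286. On chr11:32148396-32148902, in the R2 window, αP+G replicate 1 had 609 and the others 864 to 899. On the next fragment, chr11:32148903-32149605, αP+G replicate 2 had 1127 and the others 899 to 912.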

How the results depend on the processing

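For QuadDel against WT, the 14 called fragments became 8 in DESeq2's test, 9 at a mean count of at least 1, 3 at 20, and 24 when the fragments beside R1 were counted, 13 of them shared. Leaving out 1 library gave 5 to 12, with 8, 5 and 6 without WT replicate 1, WT replicate 2 and QuadDel replicate 3. The 7 called windows became 14 with DESeq2's size factors, 1 higher and 13 lower, and 15 in DESeq2's test, 1 higher and 14 lower, against 2 higher and 5 lower, with 6 of the 7 shared each time. With the fragments beside R1 counted, 5 windows were called and 3 of the 7 shared, and relative to the TAD total 7 were called and 5 shared. Leaving out 1 library gave 5 to 7. The median log2 difference of all windows and bins was 0.00 with DESeq2's size factors, 0.17 with TMM factors, 0.35 relative to the TAD total and 0.45 with the fragments beside R1. Under the TAD total and the latter, Hba-a1 turned to 0.0235 and 0.127 and Hba-a2 to 0.0322 and 0.136, and Hba-a1 ranged from -0.122 to 0.0163 without 1 library. The TAD share, -3.31 percentage points for QuadDel minus WT, ranged from -4.08 to -2.54 without 1 library and was -4.99 with the fragments beside R1. These alternatives for the share, and the zone rule for the steps, were chosen after seeing the data.

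For αP+G against WT αYFP, the 1 called window became 0 with DESeq2's size factors, in DESeq2's test, at a mean count of at least 20 and in a fit of 2 groups, and 0 to 2 without 1 library. For αP+G against αPonly, the 1 called fragment became 0 at 20, and 0 to 2 without 1 library, and the 0 called windows became 1 in a fit of 2 groups and 0 to 1 without 1 library. The 3′ step of αP+G minus WT αYFP, 0.00936, ranged from -0.0735 to 0.140 without 1 library. The 5′ step differences changed sign. QuadDel minus WT was 0.0196 with 10 kb and 0.0300 with 20 kb windows, and -0.131 to 0.0727 without 1 library. At 10 kb, αP+G minus WT αYFP was 0.0575 and αPonly minus WT αYFP 0.0283, the latter -0.0892 to 0.00021 without 1 library. αP+G minus αPonly was 0.0292 at 10 kb, 0.102 at 20 kb, 0.0045 without the other viewpoints' fragments, 0.0334 with the other zone rule, and -0.0474 to 0.0354 without 1 library. The 13 windows in which R1 and R2 differed in QuadDel appeared only with TMM factors. The causes were not tested. In no comparison did every same-numbered pair deviate together, although 3 of the 4 pairs of αP+G and αPonly did (r = 0.128, 0.459, 0.174 and -0.458 over 22 windows). With the replicate block QuadDel against WT had 13 called fragments and 7 called windows, and the counts of calls in the CD71+ comparisons did not change. Depth limits thinly met windows: HS+65/66 rested on 162 interactions over the WT libraries, and HS-38/-39 on 105 over those of WT αYFP.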
